A study of Talpa occidentalis and Mus musculus with 35 samples.

Results

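FSHR, LHCGR and INSL3 encode the follicle-stimulating hormone receptor, the luteinizing hormone receptor and insulin-like peptide 3. Their gene lines were taken from the annotation of the Iberian mole genome (Talpa occidentalis, assembly talOcc3) by name, after a trailing copy or low-confidence mark was removed. Each name stood on 1 line, so the members were 3 of 23336 gene lines, and none carried such a mark. The series holds 35 polyadenylated RNA libraries of gonads in 16 groups, and its design text asks which genes take part in forming the ovotestis of female moles. All moles were wild type. At embryonic day 15 whole ovotestes and testes were taken (2 libraries of each), and both 7 days after birth (3 of each) and in adults (2 of each) the ovotestis was split into its ovarian and testicular parts, next to the testis. Wild-type CD1 mice gave ovary and testis at embryonic day 13.5, postnatal day 7 and 10 weeks (2 each). Mutant ovaries titled MutFgf9 and wild-type ovaries titled WtB6 came from mice at embryonic day 13.5 (2 each), with a strain label beginning C57BL and running differently in each library. The annotation had no value per library, so the levels of the 3 genes in these gonads were not analysed here, library depth is unknown, and everything below describes gene models, which have no replicates.

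FSHR and LHCGR belong to the glycoprotein hormone receptors. Each has a large outer part built of leucine-rich repeats that binds the hormone, a hinge, and a bundle of membrane-spanning helices that couples mainly to the G protein Gs and raises cyclic AMP. FSHR is known from Sertoli cells of the testis and granulosa cells of the ovary. LHCGR is known from Leydig cells, theca cells, luteal cells and mature granulosa cells, where it drives steroid synthesis. INSL3 is a small secreted peptide of the relaxin family, made as a precursor with a B chain, a connecting peptide and an A chain. Leydig cells are its main source, theca cells make it in the ovary, and it acts through the receptor RXFP2 in the descent of the testis.

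The receptors lay side by side on scaffold 9, both on the minus strand. FSHR ran from 28938334 to 29092514, a span of 154 kb, and held 10 exons with 2088 coding bases (696 codons with the stop). LHCGR ran from 28718931 to 28788302, a span of 69.4 kb, with 12 exons and 1746 coding bases (582 codons). This span includes exon 12 and the intron of 7914 bases before it. That exon lay outside the alignment to the reference transcript, described below. INSL3 lay on scaffold 5 from 5454441 to 5455690, also on the minus strand, with 2 exons, 399 coding bases and a span of 1.25 kb. Exons here are the coding lines. In all 3 models these reach both ends of the gene line, so the spans include no untranslated ends. Among the 21490 gene lines with a symbol, the span of FSHR was at percentile 96.8, that of LHCGR at 90.9 and that of INSL3 at 22.1. Among models of the kind labelled EVM, to which all 3 belong, the span of INSL3 was at percentile 3.70. The coding lengths were at percentiles 80.2, 73.3 and 11.4 of all named lines, and that of INSL3 at 5.12 among EVM models, and FSHR ranked higher by span than by coding length. The EVM kind made up 14981 lines.

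**Figure D1:**
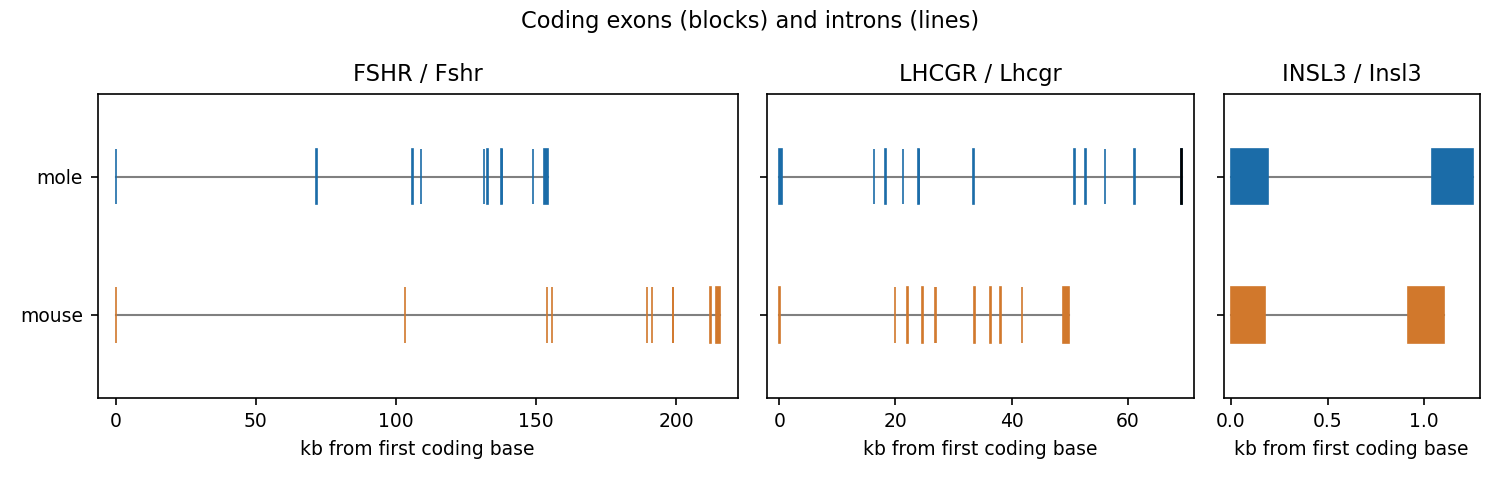
Coding exons (blocks) and introns (lines) of FSHR, LHCGR and INSL3 in the mole (blue) and the mouse (orange), in kb from the first coding base, each gene on its own axis. Exons and introns are to scale, apart from a thin outline that makes short exons visible. The black block is the last LHCGR exon of the mole model, which lies outside the alignment to the reference transcript, and the mouse gene ends in a longer exon instead.

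The mole FSHR model had the exon layout of the mouse gene. Its exons, from the first, were 152, 72, 75, 75, 72, 78, 69, 75, 186 and 1234 bases long, and the first 9 had the length of the mouse exon of the same number. The mouse gene (GRCm38, GENCODE M21) lies on chromosome 17, with a coding span from 88985173 to 89200612 on the minus strand. The last exon was 9 bases, or 3 codons, longer than in the mouse once the mouse stop codon was added. The mouse annotation leaves the stop codon out, and among the 2119 genes that shared all internal exon lengths and the exon number, the mole last exon was 3 bases longer in 67.9%. An identical chain of internal exons was found in 2119 of 10645 genes named once in both species with at least 3 exons, 19.9% of them. FSHR was among these and LHCGR was not. The exon number alone equalled that of the mouse in 40.2% of the same genes, again with FSHR and without LHCGR.

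LHCGR kept the mouse layout through exon 10 and departed from it at both ends. Exons 2 to 10 were 72, 75, 75, 75, 78, 69, 75, 186 and 81 bases long, the same 9 lengths as in mouse Lhcgr (chromosome 17, coding span 88741997 to 88791971, minus strand). The first exon had 524 bases against 173 in the mouse. In the mouse, exon 11 has 1144 bases with the stop codon and encodes the membrane-spanning part of the receptor. The mole model had an exon 11 of 246 bases, an intron of 7914 bases and an exon 12 of 190 bases in that place. Exon 11 thus had 21.5% of the length of the mouse exon, and exons 11 and 12 together had 38.1%. The whole coding length was 83.0% of that of the mouse. This share and the 38.1% count bases outside the alignment to the reference transcript, in which 1164 bases of the model lay.

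The alignment recorded on the transcript line of LHCGR held the exons of mouse length, part of exon 1 and exon 11. It spanned positions 393 to 1556 of the 1746 coding bases, counted from the start codon end of the model, which is 66.7% of the model. The first 392 bases of exon 1 were outside and the remaining 132 inside. Exons 2 to 11 were wholly inside, and exon 12 was wholly outside. The outside part at the far end, 190 bases, was exactly exon 12. FSHR was aligned over all 2088 bases and INSL3 over all 399. Among named models of at least 3 exons, 16.8% had a last exon wholly outside the alignment (2579 of 15348). The median named model was aligned over 96.6% of its length (quartiles 80.2 and 100%), and LHCGR was at percentile 15.2. The rest of the long last exon was not looked for in the mole genome, whose sequence was not used here.

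The direction in which the file counts the aligned interval was settled by comparing exon lengths in the file with those of the mouse. On the minus strand, 894 models left at least 100 bases out at the high end of the written interval and at most 3 at the low end, and 81.2% of them had a last but one exon of mouse length, against 22.5% for the second exon. On the plus strand the same held for the low end, with 80.9% and 22.4% of 869 models. The interval was therefore counted along the scaffold, from the tail of a minus-strand model.

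Scores on the transcript lines were 2817 for FSHR, 1460 for LHCGR and 198 for INSL3. No source used here says what this score counts. The reference intervals were 111 to 2198 (2088 bases), 94 to 1263 (1170 bases) and 69 to 464 (396 bases). Per reference base the scores were 1.35, 1.25 and 0.5, against a median of 1.21 over 21361 named models (quartiles 0.922 and 1.41). FSHR and LHCGR were at percentiles 66.9 and 54.6, and INSL3 was at 4.75. The low score of INSL3 thus came with an alignment over the full model. That of LHCGR, once divided by its reference interval, was near the middle. This measure leaves out the part of the LHCGR model outside the alignment.

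The exon by exon comparison of the receptors gave 7 exons of equal length among the 10 that could be paired from the first. Exons 2, 3, 4, 6, 7, 8 and 9 were equal. Exon 5 was 72 bases in FSHR and 75 in LHCGR, a difference of 1 codon. Exon 1 had 152 bases in FSHR and 524 in LHCGR, against 152 and 173 in the mouse, and exon 10 differed in kind. Exon 10 of FSHR is the long last exon, while exon 10 of LHCGR is a piece of 81 bases in the hinge with no counterpart in FSHR. The mouse receptors gave the same 7 of 10.

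**Figure D2:**
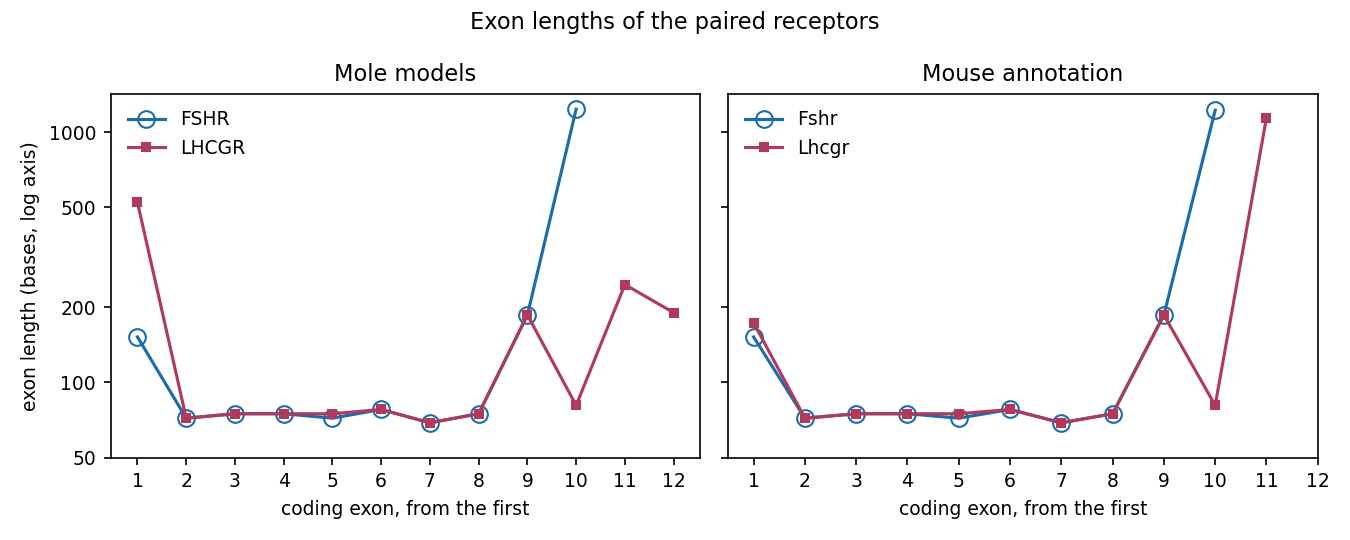
Length of each coding exon (bases, log axis) against its number from the first, for the mole models (left) and the mouse annotation without the stop codon (right), with FSHR as open circles and LHCGR as filled squares. The points coincide at exons 2 to 4 and 6 to 9 in both panels, and the mole LHCGR model ends in exons of 246 and 190 bases where the mouse has 1 exon of 1141.

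Exons 2 to 8 of both receptors, the leucine-rich repeat exons, were 69 to 78 bases long, and exon 9 had 186. All 8 internal exons of FSHR and all 10 of LHCGR were a multiple of 3 bases, against 40.3% of the 138976 internal exons in named models. Exon 11 of LHCGR counts as internal only because exon 12, which lay outside the alignment, follows it. A length of 66, 69, 72, 75 or 78 bases, about the size of 1 repeat, was found for 7 of 8 internal exons of FSHR and 7 of 10 of LHCGR, against 3.27% of all internal exons. This set of lengths covers those of exons 2 to 8 given above. Other leucine-rich repeat receptors had such exons too, as given below. All 9 introns of FSHR and all 11 of LHCGR interrupted the reading frame after the second base of a codon, including the intron between LHCGR exons 11 and 12. Of the 6590 named models with at least 9 introns, 27 had all introns in 1 frame position, or 0.41%, and FSHR and LHCGR were among them. The cut of 9 equals the intron number of FSHR. Introns share a frame position exactly when all internal exons are a multiple of 3 bases, so this is the same property counted again.

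Sequences of the mole models were not used here, and the mouse exons of the same lengths are shown to let the paired exons be read against each other. Capitals mark bases that are the same in both receptors at that position. Among the pairs of equal length, exon 3 had the highest share of identical bases and exon 2 the lowest, and exon 9 is the longest pair of equal length (GENCODE M21, GRCm38).
Fshr exon 3, chr17:89046630-89046704, minus strand: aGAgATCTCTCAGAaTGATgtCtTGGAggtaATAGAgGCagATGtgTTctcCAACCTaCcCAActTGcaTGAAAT
Lhcgr exon 3, chr17:88769837-88769911, minus strand: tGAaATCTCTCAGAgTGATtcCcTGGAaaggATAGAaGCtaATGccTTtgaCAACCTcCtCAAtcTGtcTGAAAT
Fshr exon 2, chr17:89097310-89097381, minus strand: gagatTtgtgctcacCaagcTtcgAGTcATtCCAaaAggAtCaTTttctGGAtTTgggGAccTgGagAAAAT
Lhcgr exon 2, chr17:88772012-88772083, minus strand: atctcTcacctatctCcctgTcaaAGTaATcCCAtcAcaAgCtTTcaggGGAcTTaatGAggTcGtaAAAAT
Fshr exon 9, chr17:88988424-88988609, minus strand: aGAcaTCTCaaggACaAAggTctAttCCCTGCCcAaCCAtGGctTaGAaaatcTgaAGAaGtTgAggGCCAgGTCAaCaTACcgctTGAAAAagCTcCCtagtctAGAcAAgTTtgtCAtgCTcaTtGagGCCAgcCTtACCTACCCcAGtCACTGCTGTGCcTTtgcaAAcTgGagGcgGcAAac
Lhcgr exon 9, chr17:88753744-88753929, minus strand: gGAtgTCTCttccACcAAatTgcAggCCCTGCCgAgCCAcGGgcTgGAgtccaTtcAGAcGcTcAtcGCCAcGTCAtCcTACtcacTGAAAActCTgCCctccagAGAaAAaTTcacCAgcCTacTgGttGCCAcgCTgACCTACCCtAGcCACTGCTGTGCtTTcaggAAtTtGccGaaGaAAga
Exon 10 of Lhcgr, the exon that the mole LHCGR model shares with the mouse and that Fshr lacks, is given for its own sake.
Lhcgr exon 10, chr17:88750103-88750183, minus strand: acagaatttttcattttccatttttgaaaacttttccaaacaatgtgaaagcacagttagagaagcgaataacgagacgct

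In the mouse, 51 of 75 bases of exon 3 were identical between the receptors (68.0%), and 30 of 72 of exon 2 (41.7%). Over the 7 pairs of equal length 358 of 630 bases were identical, 56.8%, compared base by base without gaps. Exon 9 had 57.5%. The long last exons, Fshr exon 10 and Lhcgr exon 11, had 71.0% identical bases over 1111 aligned positions. Counted over the whole of the longer exon, gaps included, this was 64.4%, below the 68.0% of exon 3, so the order of these pairs depends on the positions counted. These last exons encode the membrane part, of which the mole LHCGR model holds only a fraction.

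**Figure D3:**
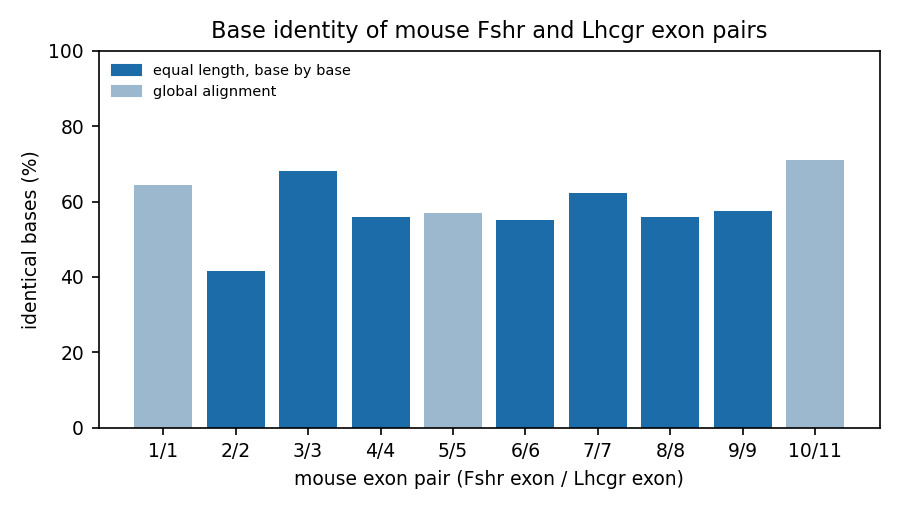
Identical bases (percent) in each pair of mouse Fshr and Lhcgr exons, named by exon number. Dark bars are pairs of equal length compared base by base and light bars are pairs of unequal length after a global alignment. Among the dark bars exon 2 is lowest at 41.7% and exon 3 highest at 68.0%, and the light bars count aligned positions only and are not ranked with them.

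Intron lengths set the receptors apart where exon lengths did not. The 9 FSHR introns were 71.5, 34.1, 2.92, 22.5, 1.21, 4.92, 0.108, 10.8 and 4.06 kb long, in order from the first. The first 9 LHCGR introns were 15.7, 1.92, 2.96, 2.57, 0.088, 9.26, 17.3, 1.83 and 3.215 kb long. They summed to 152 kb in FSHR and 54.9 kb in LHCGR, and 6 of 9 were longer in FSHR. Introns 1 and 2 made up 69.4% of the FSHR sum. Intron 3 was of nearly equal length in both, 2917 and 2958 bases. Each receptor had 1 very short intron, but in different places. It was intron 7 in FSHR, with 108 bases, and intron 5 in LHCGR, with 88 bases.

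Both short introns had nearly the same length in the mouse, 109 bases in Fshr and 88 in Lhcgr. Among 1551 mole introns under 150 bases in genes with the mouse exon chain, 11.7% were within 1 base of the mouse length, a count chosen after the values were seen. The long introns differed more. FSHR introns were shorter in the mole in 7 of 9 cases, and their sum was 152 kb against 213 kb, a ratio of 0.713. Introns 3 and 9 were longer, by ratios of 1.97 and 2.003. The first 10 LHCGR introns summed to 59.7 kb in the mole and 47.9 kb in the mouse, a ratio of 1.25. Over the 2119 genes with the mouse chain and exon number the median ratio was 0.914 (quartiles 0.717 and 1.09), so FSHR was just below the lower quartile and LHCGR above the upper. LHCGR is not one of these genes, and its ratio leaves out its last intron, of 7914 bases.

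A single intron gave LHCGR its surplus. Intron 7 had 17329 bases in the mole and 2717 in the mouse, a ratio of 6.38. The other 9 had ratios from 0.696 to 1.41. This intron held the 1 gene line that overlapped a member, a single-exon model named C9orf84 of 183 bases from 28742344 to 28742526 on the plus strand. Its score was 5.52% of the highest of that symbol, which had 2 loci. Whether this model belongs with the added length was not tested. Across introns, log10 lengths in the species had a Pearson r of 0.980 over 9 FSHR introns and 0.910 over 10 LHCGR introns (Spearman rho 0.983 and 0.855), given as a description since introns of a gene are not independent.

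**Figure D4:**
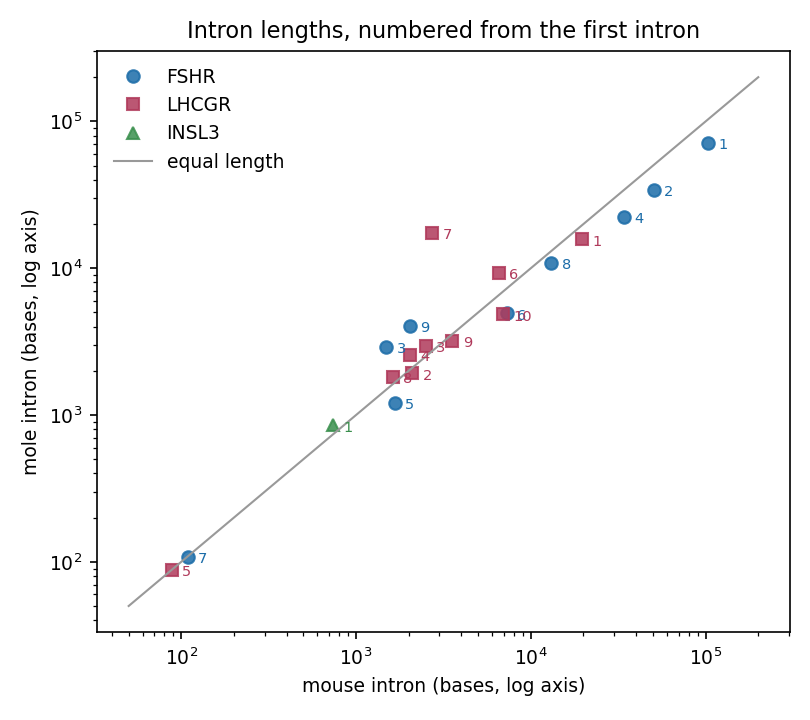
Length of each intron in the mole against the mouse (bases, log axes), with FSHR as circles, LHCGR as squares and INSL3 as a triangle, numbered from the first intron. The grey line marks equal length. LHCGR intron 7 lies far above the line, FSHR intron 7 and LHCGR intron 5 lie on it at about 100 bases, and the longest FSHR introns lie below it.

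INSL3 had the layout of its family, 2 exons and 1 intron. The exons had 190 and 209 bases and the intron 851, against 175, 194 with the stop codon, and 739 in mouse Insl3 (chromosome 8, coding span 71689258 to 71690362, plus strand). Each mole exon was 15 bases, or 5 codons, longer than the mouse exon. In both species the intron interrupted the frame after the first base of a codon. The mouse exons are shown with that split codon in capitals, 1 base at the end of exon 1 and 2 at the start of exon 2.
Insl3 exon 1, chr8:71689258-71689432, plus strand: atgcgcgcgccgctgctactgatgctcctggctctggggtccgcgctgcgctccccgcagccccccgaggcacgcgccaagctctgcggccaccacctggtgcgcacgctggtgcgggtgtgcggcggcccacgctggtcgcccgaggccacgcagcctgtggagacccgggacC
Insl3 exon 2, chr8:71690172-71690365, plus strand: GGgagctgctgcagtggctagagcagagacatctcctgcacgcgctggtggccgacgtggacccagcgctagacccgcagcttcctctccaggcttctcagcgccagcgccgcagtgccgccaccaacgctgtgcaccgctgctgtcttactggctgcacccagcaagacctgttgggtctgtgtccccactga

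RLN3, the relaxin-3 peptide of the brain, also had 2 exons in the mole, of 190 and 230 bases, and an intron of 1297 bases. INSL6, a peptide of male germ cells, had exons of 280, 333 and 29 bases where the mouse has 271 and 302 without the stop codon. The first intron of all 3 peptides in the mole, and of Insl3, Rln3, Insl6, Insl5 and Rln1 in the mouse, split a codon after its first base. Per reference base the score was 0.712 for INSL6 and 1.03 for RLN3, against 0.5 for INSL3.

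The order of genes around the receptors was that of the mouse on the LHCGR side. From low to high positions the mole file had FOXN2, PPP1R21, GTF2A1L, LHCGR and FSHR. GTF2A1L, a germ cell form of a general transcription factor, lay 19.4 kb from LHCGR on the opposite strand, with the tail of LHCGR toward it. The tail is exon 12, which lay outside the alignment, so this gap depends on that exon. The last aligned exon, exon 11, reached down to 28727035, and GTF2A1L ended at 28699560. In the mouse this gap was 27.0 kb. LHCGR and FSHR were 150.03 kb apart, at percentile 88.7 of 19487 gaps between adjacent named loci, and 193 kb apart in the mouse. The same gene order and strands were found in the mouse, where Ston1 lies between Ppp1r21 and Gtf2a1l. STON1 had no line under its symbol in talOcc3. In the later mole assembly MPIMG_talOcc4v2.1, used for order only, it was the 1 locus between GTF2A1L and PPP1R21. In that assembly FSHR and LHCGR had 0 loci of any kind between them. FBXO11 and MSH6 lay beyond FOXN2 in talOcc3, at lower positions, 562 and 594 kb from LHCGR.

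Among genes named once in both annotations, LHCGR and INSL3 kept both neighbours against the mouse and FSHR kept 1. Both neighbours were kept by 88.4% of 12225 genes. Against the later mole assembly the members gave the same counts, where 93.4% of 12013 genes kept both. The neighbour not kept was ASB3 in both comparisons. Genes named on several lines did not enter this count. The place of ASB3 was taken by Adcyap1 in the mouse and by CHAC2 in the later assembly.

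INSL3 lay in a dense stretch. JAK3, a cytokine receptor kinase, lay 2.56 kb upstream on the same strand, and B3GNT3, a glycosyltransferase, 3.835 kb downstream on the opposite strand. These gaps were at percentiles 13.7 and 18.3. In the mouse the coding spans of Insl3 and Jak3 were 1.11 kb apart and those of Insl3 and B3gnt3 2.24 kb. Beyond B3GNT3 the mole had FCHO1, an endocytosis gene, on 2 lines at 20.8 and 32.3 kb, and MAP1S, which binds microtubules, on 2 lines at 65.8 and 79.0 kb. Beyond JAK3 it had the iodide transporter SLC5A5 at 42.8 kb, a single-exon SNRPE model at 84.2 kb and CCDC124 at 110.3 kb.

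The block of FCHO1, B3GNT3, INSL3 and JAK3 was shared with the mouse, but the side on which UNC13A lay was not. UNC13A, a synaptic vesicle gene singled out after its position was seen, lay on the B3GNT3 side in the mole, 119 kb from INSL3, and on the Jak3 side in the mouse, 17.6 kb from Insl3 and 6.69 kb from Jak3. The neighbours counted above for INSL3 were inside the shared block, so both were kept.

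**Figure D5:**
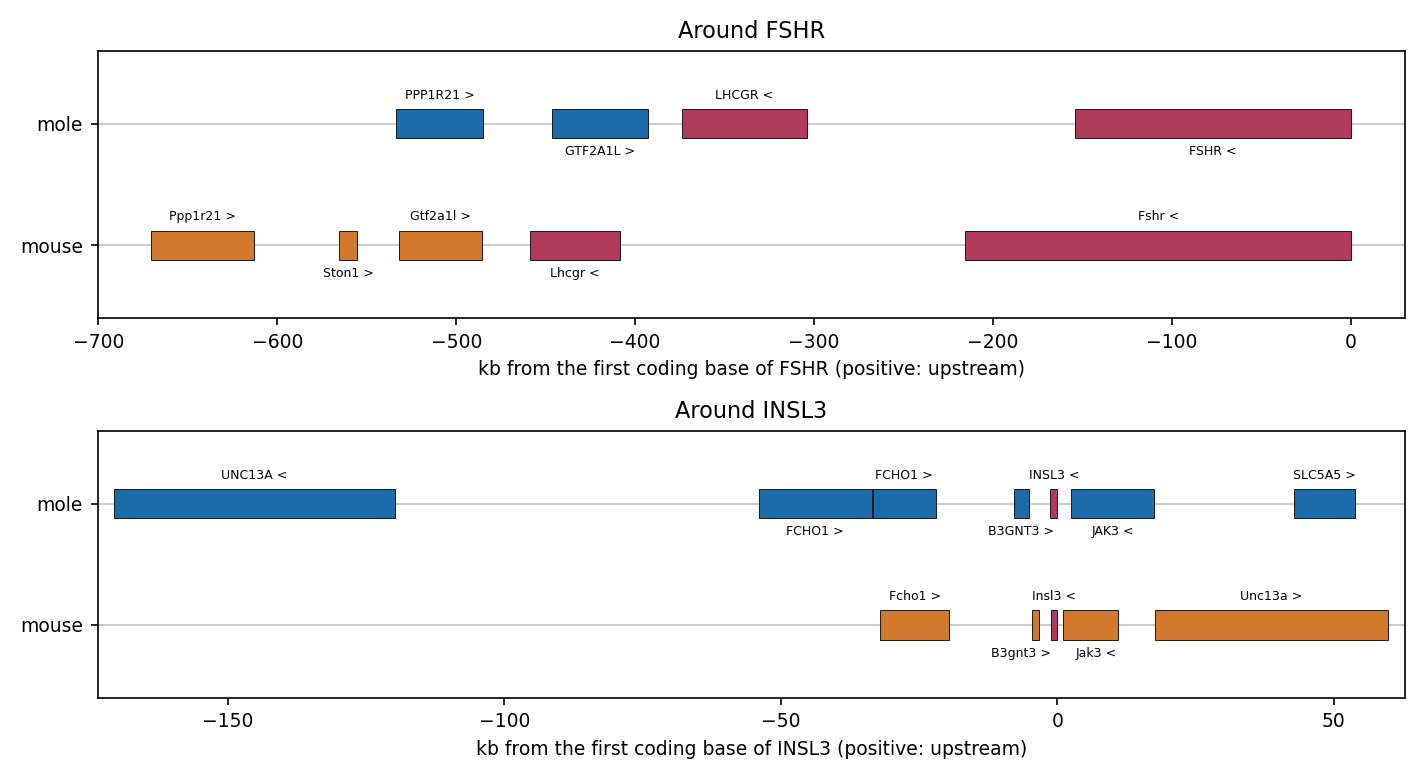
Selected genes around FSHR (top) and INSL3 (bottom) in the mole and the mouse, in kb from the first coding base of FSHR or INSL3, with positive values upstream, and > or < giving the direction of transcription along the axis. FSHR, LHCGR and INSL3 are red. Genes not labelled are not drawn. UNC13A lies to the left of INSL3 in the mole and to the right in the mouse.

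FSHR and LHCGR were set beside 6 other leucine-rich repeat receptors, in a list of 8 genes that includes both and was chosen with earlier results of these data known. All 8 had 1 locus, and their median span was 76.1 kb and median exon number 17, against 13.2 kb and 7 over the best locus of 16196 symbols. FSHR and RXFP1, a relaxin receptor of 18 exons and 111 kb, had the longest spans, and the thyrotropin receptor TSHR and the INSL3 receptor RXFP2, with 42.7 and 50.4 kb, the shortest. FSHR and RXFP1 were the 2 of 8 that had the mouse chain of internal exons. RXFP2 had 17 exons, all of the length of the first 17 of 18 in the mouse, and 11 of its 15 internal exons were of repeat size, 10 of them with 72 bases. LGR4, LGR5 and LGR6, receptors of R-spondins, had 25, 17 and 18 exons and shared runs of 15, 16 and 10 exon lengths with the mouse. Internal exons of repeat size numbered 11 of 23 in LGR4, 11 of 15 in LGR5 and 10 of 16 in LGR6. They numbered 10 of 16 in RXFP1 and 2 of 4 in TSHR.

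TSHR, the receptor nearest in kind to FSHR and LHCGR, was the other glycoprotein hormone receptor and was modelled in part. It lay on scaffold 29 from 10112895 to 10155585 with 6 exons of 86, 69, 78, 189, 1199 and 197 bases. Exons 2 to 4 had the lengths of exons 7 to 9 of the 10 in mouse Tshr. Its first and last exons were wholly outside the alignment, as was the last exon of LHCGR. A first exon wholly outside was found in 26.4% of named models of at least 3 exons.

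The hormones that act on the receptors are dimers of the common subunit CGA and a specific beta subunit. FSHB, the follicle-stimulating hormone subunit, had 2 loci on scaffold 18, both on the minus strand. The first, from 23414224 to 23416533, had 2 exons and 390 coding bases, and the second, from 23462944 to 23472422, had 6 exons and 39.2% of the highest score. LHB, the luteinizing hormone subunit, had 3 exons and 426 coding bases on scaffold 36. CGA had a single exon of 185 bases on scaffold 7, against 3 coding exons in the mouse, and TSHB, the thyrotropin subunit, had 2 exons. GNRH1 and its receptor GNRHR, which control gonadotropin release, had 3 and 2 exons, and KISS1 had 2. Of the 8 genes of this list 7 had a locus, KISS1R had none, and the spans were longest in GNRHR and TSHB (7.32 and 7.03 kb) and shortest in CGA and LHB (0.185 and 1.04 kb). Of the 2 genes with at least 3 exons in both species, LHB had the mouse chain and GNRH1 did not.

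Of 9 insulin and relaxin peptides 5 had a locus, all with 1. INSL5, RLN1, RLN2 and INS had no line under their symbols, and the 1846 unnamed lines were not searched. IGF1 and INSL6 had the longest spans, 67.1 and 15.35 kb, and INSL3 and RLN3 the shortest, 1.25 and 1.72 kb. Among the other peptide receptors INSR and IGF1R spanned 269 and 211 kb. RXFP3, a relaxin-3 receptor, was a single exon spanning 1.38 kb, and RXFP4 had no line. All 15 genes of the signalling list, which holds the cyclic AMP pathway and other genes such as GNAQ and GNA11, had a locus. Of these, GNAS, the Gs alpha subunit, and the cyclase ADCY3 had 3 loci each, and CREM and the phosphodiesterase PDE4D had 2. Over all 16196 symbols, 14.6% had several loci. PDE4D and GNAQ had the longest spans in this list, 225 and 221 kb, and ARRB2 and GNA11 the shortest, 5.096 and 8.07 kb.

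Genes known to respond to gonadotropins all had a locus, 12 of 12. CYP17A1, the enzyme that leads to androgens, had 3 and the others 1. The median span of this list was 10.98 kb. NR5A1 and GATA4, transcription factors of gonadal somatic cells, had 73.0 and 66.6 kb, and AMH and INHA had 1.46 and 2.43 kb. Of 8 members with at least 3 exons in both species CYP11A1, CYP19A1 and HSD3B1 had the mouse chain. For the signalling list 3 of 11 did, PRKACA, PRKAR1A and CREB1. Over all genes compared the share was 19.9%, and nothing particular to lists this short is read from these counts. Among the genes listed as usual neighbours, GTF2A1L spanned 53.7 kb and B3GNT3 2.79 kb. FOXN2 and FCHO1 had 2 loci each. The 2 FCHO1 lines were adjacent and on the same strand, and the extra FOXN2 line was a single exon on another scaffold.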

How the data were processed

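The 35 libraries were polyadenylated RNA of gonads, per the labels. STAR 2.6.1d and mm9 are listed, without a role, per the submitters' processing notes. The file analysed was the talOcc3 annotation, and 0 columns of per-sample values were left unused because it holds none. Its transcript lines carry a score and reference and query intervals as deposited. No source used here says how models, scores or intervals were made.

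Gene, transcript and coding lines were joined in Python 3.11.15 (numpy 2.4.6, scipy 1.17.1). Mouse coding parts came from GENCODE M21 (GRCm38), taking the best APPRIS principal transcript, then the longest. Unequal exons were aligned with Biopython 1.88. No coordinate was converted between builds. MPIMG_talOcc4v2.1 served for order and names only. Percentiles count ties equally to each side. As a check of the code, the mouse annotation was compared with an altered copy of itself. All 200 altered exon chains and all 100 gene pairs brought together by removing genes were found, with 0 false calls. That outcome follows from how the copy was made and says nothing about the accuracy of the mole models. The members, lists and the rule for named genes (members and their 5 nearest loci per side, list genes with 0 or several loci, the 2 longest and 2 shortest spans per list, receptors with exon numbers) were chosen with earlier results of these data known. Alternatives covered names, neighbours, ranks, exon pairing and coverage. Protein and promoter sequences were not used here. Some neighbouring genes are not reported here.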

Additional observations from a re-analysis of the deposited data

How the results depend on the processing

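No paired analysis was possible because the annotation gives no measurement per library. Of 55 values under the alternatives, 27 stayed within their interval, at the same length or within 1.5 times the count, and 28 moved. Percentiles depend on the lines they are taken among. For span, coding length, exon number and longest intron, in that order, they were 96.8, 80.2, 71.2 and 97.6 for FSHR, 90.9, 73.3, 77.8 and 87.6 for LHCGR and 22.1, 11.4, 24.3 and 29.7 for INSL3 among all named lines. Among models labelled EVM they were 95.8, 72.9, 59 and 97.1 for FSHR, 87.8, 64.2, 68.1 and 84.8 for LHCGR and 3.7, 5.12, 2.98 and 10.7 for INSL3. On scaffolds annotated to 1000000 or beyond they were 96.6, 78.8, 69 and 97.4 for FSHR, 90.1, 71.6, 76 and 86.7 for LHCGR and 18.1, 9.76, 20.3 and 25.6 for INSL3. With same-strand neighbours the nearest locus was 562 kb from LHCGR on the GTF2A1L side and 119 kb from INSL3 on the B3GNT3 side. With IDs as written, 1 list gene had several loci, against 10 (over all symbols, 2371 of 16196 had several with copy marks removed). Paired from the last exon, 1 exon of the receptors had equal length, against 7, since LHCGR has more exons. For LHCGR the reference interval was 67.0% of the coding length, and the coding length 149% of the interval. How far the models miss exons cannot be told without the genome sequence.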
